A study of Homo sapiens with 6 samples.

Results

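The genes described here are 50 protein-coding genes of vesicle traffic between the endoplasmic reticulum (ER) and the Golgi apparatus, chosen by name for their role in the pathway: 3 KDEL receptors, 8 subunits of the COPI coat, 11 genes of the COPII coat, 4 cargo receptors, 7 TMED (p24) proteins, 4 ARF GTPases, 3 ARF exchange factors, 4 Golgi tethers and 6 SNAREs. The choice was made with earlier results of these data known, so counts over these genes describe them and are no independent evidence. All 50 were found among the 62438 genes of the count table, and all 50 were among the 17320 genes expressed highly enough to be tested. RNA-seq was performed on 6 libraries of cells that carry the label MDA-MB-453 (a line from a human breast cancer). Of these, 3 were transfected with siRNA against N6AMT1 (si-N6AMT1), which encodes a methyltransferase studied for the 6mA modification of DNA, and the other 3 with scrambled siRNA (si-CN). Both groups received 10 nM siRNA, and the labels give 48 h as the time. The knockdown is transient, in a single line, and the sources used here name no second siRNA for these libraries.

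Proteins that are secreted or sent to membranes are folded in the ER, packed into vesicles with a COPII coat at ER exit sites and handed to the Golgi. COPI-coated vesicles, whose coat is recruited by ARF GTPases, carry escaped ER residents and used cargo receptors back, and KDEL receptors are the proteins that catch those residents in the Golgi. Tethers such as golgins hold an arriving vesicle at its target, and SNAREs fuse the membranes. The machinery is expressed in nearly every cell and is prominent in secretory ones.

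Library totals ran from 19739247 to 21289740 estimated counts. CPM, counts scaled to a common library size with TMM factors, is used below to compare a gene between libraries, and TPM, which also divides by transcript length, to compare genes with each other. The targeted gene N6AMT1, on chromosome 21, had 136, 135 and 141 counts in si-CN and 61, 72 and 60 in si-N6AMT1 (log2 fold change -1.10 ± 0.119, FDR 3.65e-07), so each knockdown library was below each control. Here and below, the ± of a log2 fold change is its standard error (SE, n = 3 per group), FDR is the p of edgeR's quasi-likelihood test adjusted by Benjamini-Hochberg over all genes tested, and values of a group are listed in the order of replicates 1, 2 and 3. Markers were checked against the label before the results. Of 11 luminal breast markers, KRT8 (599 CPM in si-CN), KRT18 (459.9) and EPCAM (316) were high, but TFAP2B was at 0.0169 CPM, SPDEF at 0.217 and KRT19 at 0.498, and ERBB2 was at 53.6. The others were XBP1 at 78.9 CPM, FOXA1 at 8.40, CDH1 at 4.97 and GATA3 at 2.66. Most basal or mesenchymal markers were high, with KRT5 at 767 CPM, KRT17 at 2842, TP63 at 207, VIM at 630.4 and FN1 at 665. KRT14 was at 110 CPM, CDH2 at 90.6 and ZEB1 at 17.8. Some of these levels, such as those of KRT5, TP63 and TFAP2B, go against the usual picture of MDA-MB-453, so the cells are called by their label only. The 11 luminal markers summed to 1508 to 1549 CPM in si-CN and 1564 to 1585 in si-N6AMT1, the 8 basal or mesenchymal markers to 5299 to 5366 and 5471 to 5526, and 8 measured markers of fibroblasts, endothelium or blood to 191 to 194 and 245 to 256, of which CD68 made 142 and 201 CPM (group means) while PTPRC and CD3E were near 0. Of those expressed highly enough to be tested, 3 of 9 luminal, 5 of 8 basal or mesenchymal and 1 of 4 other markers were called higher in si-N6AMT1, and 1 luminal marker was called lower. The mitochondrial genome took 3.64 to 3.86% of counts in si-CN and 2.91 to 3.11% in si-N6AMT1. These values moved with the groups, and their part in the results was not tested. In bulk RNA, fewer cells of a type and less RNA per cell cannot be told apart.

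Of the 50 genes, 20 were downregulated in si-N6AMT1 and 1, TMED5, was upregulated at an FDR under 0.05. The downregulated share was 40.0%, compared with 11.5% of all 17320 genes tested and 18.4% of the 9708 genes within the same range of CPM. The upregulated share was 2%, compared with 9.78% and 14.1%. The shared range does not match levels, since the median was 128 CPM in the 50 genes, 45.7 in the 9708 and 17.5 over all genes tested. The median log2 fold change was -0.08, beside 0.00 over all genes tested, and the values ran from -0.47 to 0.10, so the changes were small. In 21 of the 50 genes every si-N6AMT1 library lay below every si-CN library, which was so in 18.0% of all genes tested, and in 3 every si-N6AMT1 library lay above, which was so in 16.8%. Of the 9708 genes within the same range of CPM, 2482 lay below and 2067 above in this way. Of the 20 downregulated genes, 12 passed the threshold in all 14 alternative analyses. These were TMED4, KDELR2, LMAN1, SEC23A, COPA, SEC24A, YKT6, TMED10, SAR1A, COPB2, COPB1 and ARCN1, and they come from the KDEL receptors, both coats, the cargo receptors, the p24 family and the SNAREs.

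**Figure D1:**
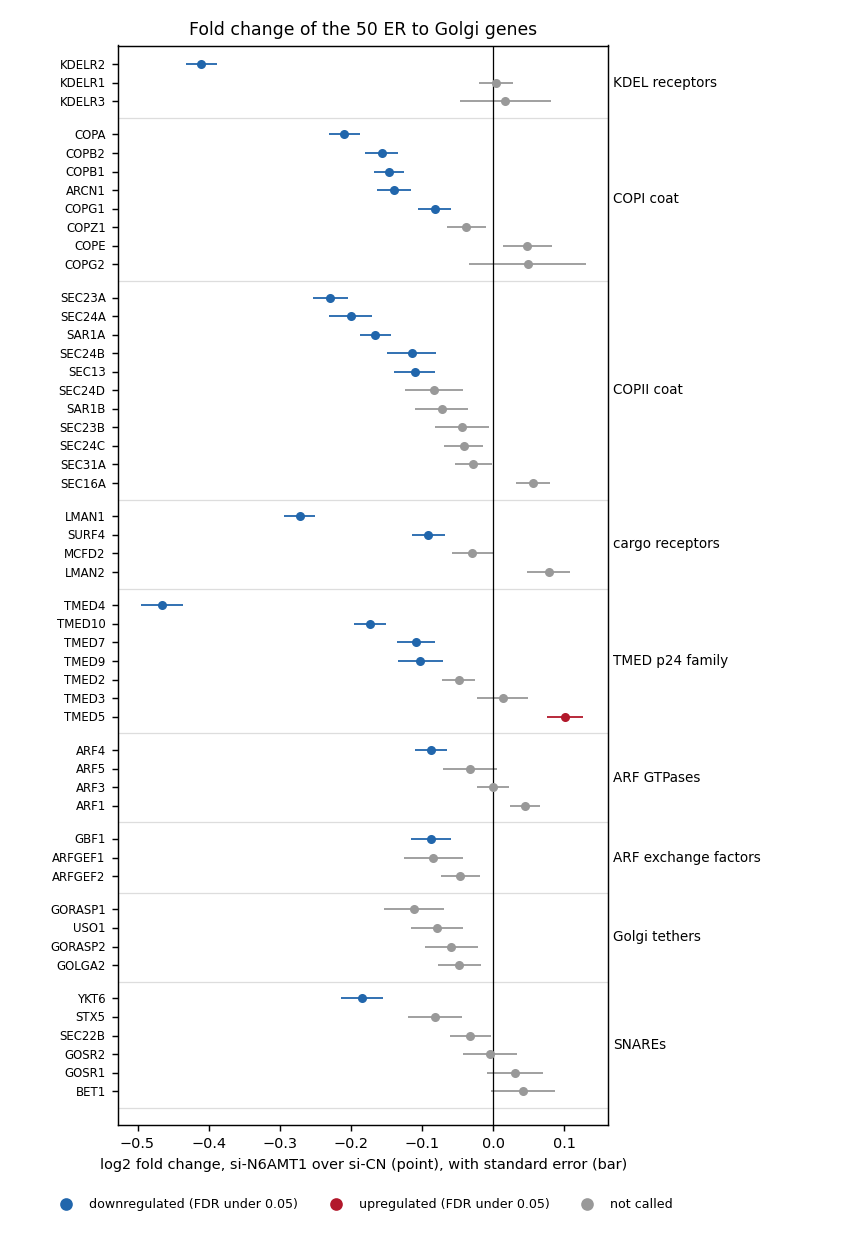
Log2 fold change (si-N6AMT1 over si-CN, horizontal axis) of the 50 ER to Golgi genes, grouped by role. Points are edgeR estimates, bars are 1 standard error, and color gives the call at an FDR under 0.05. The 20 downregulated genes reach -0.47 (TMED4) and the single upregulated gene, TMED5, lies at 0.10.

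Summed over the 50 genes, the level was 8286, 8279 and 8298 CPM in si-CN and 7714, 7688 and 7761 CPM in si-N6AMT1, a fall of 6.84% between the means (8288 ± 9.81 and 7721 ± 37.0 CPM, SD, n = 3 each). With mitochondrial genes left out of the library sizes the fall was 6.75%. No test was made of the sum.

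A pair of overlapping 7-base sequences, TTCACAT and TCACATA, was searched in the 3′ untranslated regions (UTRs), since earlier work on these same fold changes had found them more often in downregulated genes. The sequences were therefore chosen on these data, and the counts below describe them and are no independent evidence. One or both stood in the 3′ UTR of 13 of the 50 genes (26.0%), compared with 22.2% of 13304 genes tested that have a 3′ UTR. The genes with a site that were downregulated under all alternatives are shown 5′ to 3′ on the sense strand with GRCh37 coordinates, followed by GOSR2, which held the joined 8-base TTCACATA but had a log2 fold change of -0.00. ARCN1, TMED10 and GOSR2 each held a second site that is not shown. Capitals mark the site, and all windows lie in the 3′ UTR exon of the reference transcript.
TMED4, chr7:44618193-44618222, minus strand: cattcagtttaTTCACATAtttttggtaac
KDELR2, chr7:6501533-6501562, minus strand: gacatttaaagTTCACATAatcatctgtaa
TMED10, chr14:75600145-75600174, minus strand: tatcttaaccaTTCACATAgatgtgtgtaa
LMAN1, chr18:56996365-56996393, minus strand: cagcaaagtagTTCACATgatgtgtatca
SEC23A, chr14:39502281-39502309, minus strand: tatggaaaatgTTCACATttgtagattaa
YKT6, chr7:44251911-44251939, plus strand: tggcaccatcaTTCACATcagaactgcag
SAR1A, chr10:71911321-71911349, minus strand: catctctcgtgTCACATActgcaggtgca
ARCN1, chr11:118472551-118472579, plus strand: cagttagggatTTCACATccacatgtaat
GOSR2, chr17:45016410-45016439, plus strand: tggtggctttgTTCACATAgctgatgcgtg

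Of the 13 genes with a site, 9 were downregulated and their median log2 fold change was -0.17. Of the 37 genes without one, 11 were downregulated (29.7%), with a median of -0.05. Over all genes tested with a 3′ UTR, 28.4% of genes with a site and 10.3% of genes without one were downregulated, with medians of -0.06 and 0.02. The genes most lowered, TMED4 and KDELR2, both held the 8-base TTCACATA, as did TMED10. The 4 uncalled genes with a site were SEC24C, MCFD2, GOSR2 and ARFGEF1. COPA, SEC24A, COPB2 and COPB1 held neither sequence and were downregulated. The UTRs with a site were longer, with a median of 2052 bases compared with 991 bases in the 37 genes without one, and the part of UTR length in the difference was not tested.

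Promoters were also compared, because many of these genes moved in the same direction. The motifs, like the genes, were chosen with earlier results of these data known. The RefSeq table (GRCh38.p14) holds 250 bases before to 50 bases after the start site for 43 of the 50 genes, to which the counts and medians below are limited. KDELR2, TMED4, ARF4, TMED9, USO1, SEC24D and ARFGEF1 were not matched. A gene was counted if any of its promoters held a motif, whereas shares of all promoters count each promoter singly. TGACGTG, read on either strand (CACGTCA in reverse), is the core of an element known from the unfolded protein response of the ER. It was found in 13 of the 43 genes (30.2%), in 5 of 63 other genes of the pathway (7.94%), in 352 of 10653 tested genes with a 3′ UTR (3.30%) and in 1.97% of all 35116 promoters of the table. It stood in 7 of 16 downregulated genes (43.8%) and in 6 of 27 others (22.2%), and the median log2 fold change was -0.11 with it and -0.04 without. Over the tested genes, the motif stood in 4.55% of the downregulated ones, and the medians were -0.03 with it and 0.00 without. TGACGTCA, the cAMP response element, and the ER stress response element (CCAAT, 9 bases and CCACG) were searched on both strands too. Neither was found in the 43 genes. They were found in 3.76% and 0.150% of the 10653 tested genes, and in 1.85% and 0.0769% of all promoters. Among the 63 other genes of the pathway, TGACGTCA stood in 3 (4.76%) and the ER stress response element in 0. At these shares, absence from 43 genes carries little information for TGACGTCA and none for the rarer element. TGACGTG does not occur within TGACGTCA, but its reverse can share bases with the CCACG of the other element. A match of letters is a description and not a binding site.

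The next windows run from 100 bases before to 20 after the start site (GRCh38.p14, 5′ to 3′ on the gene's strand, motif in capitals). SEC23A, COPA and COPB1 were downregulated, whereas COPE and ARF1 held the same letters as close to the start and were not called.
SEC23A, chr14:39103216-39103335, minus strand: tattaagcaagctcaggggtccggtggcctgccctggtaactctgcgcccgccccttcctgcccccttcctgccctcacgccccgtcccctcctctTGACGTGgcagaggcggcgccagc
COPA, chr1:160343231-160343350, minus strand: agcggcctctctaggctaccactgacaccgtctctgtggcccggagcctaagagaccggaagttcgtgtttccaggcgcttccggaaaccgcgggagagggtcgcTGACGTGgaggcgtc
COPB1, chr11:14499792-14499911, minus strand: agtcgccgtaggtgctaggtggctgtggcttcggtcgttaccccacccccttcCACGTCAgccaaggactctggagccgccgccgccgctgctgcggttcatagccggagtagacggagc
COPE, chr19:18919368-18919487, minus strand: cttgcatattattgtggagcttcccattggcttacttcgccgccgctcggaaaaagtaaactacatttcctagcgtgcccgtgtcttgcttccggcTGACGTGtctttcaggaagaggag
ARF1, chr1:228082608-228082727, plus strand: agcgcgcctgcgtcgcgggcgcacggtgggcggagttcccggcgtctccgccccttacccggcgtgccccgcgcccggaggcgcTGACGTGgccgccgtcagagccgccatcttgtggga

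KDELR2 was one of the most reduced genes of the pathway, while its paralogs were not called. KDEL receptors bind the KDEL signal of escaped ER proteins in the Golgi and return them by COPI vesicles. KDELR2 was at 361, 362 and 355 CPM in si-CN and at 268, 269 and 274 CPM in si-N6AMT1. The groups lay far apart compared with their spread, with means of 359 ± 3.73 and 270.3 ± 3.44 CPM (SD, n = 3 each). The fall was 24.8% (log2 fold change -0.41 ± 0.022, FDR 5.05e-12). KDELR1 was at 186, 189.8 and 188 CPM in si-CN and 192, 186 and 189 in si-N6AMT1, and these libraries overlapped (log2 fold change 0.00 ± 0.0239, FDR 0.926, interval of 2 SE either side -0.04 to 0.05). KDELR3, the least expressed of these receptors, had a log2 fold change of 0.02 ± 0.0643. The annotated span of KDELR2 overlaps that of DAGLB on the same strand, and whether their exons share sequence was not examined.

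In the COPI coat, which wraps vesicles that return from the Golgi to the ER, 5 of 8 subunits were downregulated, with a median log2 fold change of -0.11 over the 8. COPA (alpha subunit) was at 335, 338 and 344 CPM in si-CN and 293, 298 and 289 in si-N6AMT1, without overlap (log2 fold change -0.21 ± 0.0223, FDR 2.97e-07). COPB2, the beta prime subunit, which forms the outer layer of the coat with COPA, was at 353, 338 and 345 CPM in si-CN and 307, 312 and 309 in si-N6AMT1 (log2 fold change -0.16 ± 0.0228, FDR 2.05e-05). COPB1 encodes the beta subunit and was at 439, 449.9 and 442 CPM in si-CN and 395, 401 and 407 in si-N6AMT1 (log2 fold change -0.15 ± 0.0215, FDR 2.4e-05). These 3 subunits fell by 13.5%, 10.3% and 9.63%. ARCN1, the delta subunit, was at 259, 257 and 259.7 CPM in si-CN and 229, 234 and 242 in si-N6AMT1, again without overlap (log2 fold change -0.14 ± 0.0241, FDR 0.000163). COPG1, the main gamma subunit, fell less (log2 fold change -0.08 ± 0.0231, FDR 0.0126), and its call was lost without si-CN replicate 2 (FDR 0.0772). The others were not called. COPZ1 (zeta) was at 159, 159.6 and 162 CPM in si-CN and 150.4, 157 and 161 in si-N6AMT1, with overlapping libraries (log2 fold change -0.04 ± 0.027, FDR 0.376). COPE (epsilon) had a log2 fold change of 0.05 (FDR 0.377), and COPG2, a low gamma paralog, of 0.05 (FDR 0.742). Fold changes within this single complex therefore ran from -0.21 to 0.05.

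In the COPII coat, which buds vesicles from the ER, 5 of 11 genes were downregulated by edgeR and 3 by DESeq2, with a median log2 fold change of -0.08. SEC23A, of the inner coat, was at 163, 160.2 and 162 CPM in si-CN and 139.7, 135 and 139 in si-N6AMT1 (log2 fold change -0.23 ± 0.0253, FDR 4.83e-07), a fall of 14.7%. SEC24A, which binds cargo, was at 127, 134 and 138 CPM in si-CN and 115, 115 and 117 in si-N6AMT1 (log2 fold change -0.20 ± 0.03, FDR 3.06e-05). The GTPase SAR1A, which starts coat assembly, was at 292, 295 and 289 CPM in si-CN and 257, 259.9 and 263 in si-N6AMT1 (log2 fold change -0.17 ± 0.0223, FDR 7.68e-06). All 3 genes were separated between groups. SEC13, of the outer coat and also a nuclear pore protein, was at 114, 112 and 113 CPM in si-CN and 107, 106 and 101 in si-N6AMT1 (log2 fold change -0.11 ± 0.0289, FDR 0.00775), with an FDR of 0.0688 without si-N6AMT1 replicate 3 and 0.0624 in DESeq2. SEC24B fell slightly (log2 fold change -0.11 ± 0.0346, FDR 0.0201), and its FDR was 0.106 without si-N6AMT1 replicate 3 and 0.0945 without si-CN replicate 3. SEC24C, the most abundant SEC24 per length, was not called, at 148, 156 and 155 CPM in si-CN and 151, 145 and 149.8 in si-N6AMT1 (log2 fold change -0.04 ± 0.0274, FDR 0.33). The remaining genes had log2 fold changes of -0.08 (SEC24D), -0.07 (SAR1B), -0.04 (SEC23B), -0.03 (SEC31A, outer coat) and 0.06 (SEC16A, the scaffold of ER exit sites), none past the threshold. SEC16A libraries were all higher in si-N6AMT1 (216, 214 and 211 CPM) than in si-CN (200.1, 208 and 208 CPM), although its FDR was 0.113. Those of SAR1B were all lower in si-N6AMT1 (57.7, 55.9 and 57.1 CPM) than in si-CN (62.5, 58.0 and 59.0 CPM), with an FDR of 0.188. By annotated gene span, introns included, 19 of the 50 genes overlap an antisense gene of over 1 CPM and 5 a gene on the same strand. SAR1B and SEC24A, for example, overlap on opposite strands at 133984475 to 133984961 of chromosome 5. Whether their exons share sequence in that stretch was not examined, and whether strand was used in counting is not known.

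LMAN1 (ERGIC-53), a lectin that carries glycoproteins such as coagulation factors out of the ER, was at 388, 386 and 389 CPM in si-CN and 327, 317 and 319 in si-N6AMT1. The groups did not overlap, and the fall was 17.2% (log2 fold change -0.27 ± 0.0216, FDR 3.09e-09). Its partner in that task, MCFD2, was not called (log2 fold change -0.03 ± 0.0294, FDR 0.551). SURF4, a cargo receptor for soluble secreted proteins, was at 233, 232 and 234 CPM in si-CN and 220.2, 214 and 223 in si-N6AMT1 (log2 fold change -0.09 ± 0.0234, FDR 0.00645), and its FDR was 0.0553 without si-N6AMT1 replicate 2. LMAN2 (VIP36), a lectin of the same family as LMAN1, was at 101, 108 and 105 CPM in si-CN and 112, 107 and 113 in si-N6AMT1. These libraries overlapped by 1 si-N6AMT1 library (log2 fold change 0.08 ± 0.0302, FDR 0.0699), and without si-N6AMT1 replicate 2 the FDR was 0.0469. In all, 2 of 4 cargo receptors were downregulated.

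The p24 proteins (TMED) sit in COPI and COPII vesicles and sort cargo such as GPI-anchored proteins. Of 7, 4 were downregulated and 1 was upregulated. TMED4 had the largest fall of all 50 genes, from 134, 127 and 125 CPM in si-CN to 92.9, 93.3 and 93.6 in si-N6AMT1. The means were 129 ± 4.95 and 93.3 ± 0.323 CPM (SD, n = 3 each), a fall of 27.6% (log2 fold change -0.47 ± 0.0301, FDR 1.05e-10). TMED10, which pairs with TMED2, was at 292, 285 and 293 CPM in si-CN and 256, 257 and 259 in si-N6AMT1 without overlap (log2 fold change -0.17 ± 0.0224, FDR 4.35e-06). TMED2, the most abundant p24 gene, was not called, at 341, 349 and 352 CPM in si-CN and 337, 343 and 327 in si-N6AMT1 (log2 fold change -0.05 ± 0.0234, FDR 0.157). TMED7 was at 151, 149 and 153 CPM in si-CN and 136, 144 and 139 in si-N6AMT1 (log2 fold change -0.11 ± 0.0266, FDR 0.00479), but it shares its locus with the read-through gene TMED7-TICAM2. TMED9 fell with overlapping libraries (log2 fold change -0.10 ± 0.0312, FDR 0.0214). Its FDR rose to 0.112 and 0.0777 without si-N6AMT1 replicates 2 and 3, and to 0.125 and 0.0628 without si-CN replicates 1 and 2, and was 0.0829 in DESeq2, which called 3 of the 7 downregulated. TMED5 was the upregulated gene, at 142, 145 and 143 CPM in si-CN and 151, 155 and 155 in si-N6AMT1, a rise of 7.21% (log2 fold change 0.10 ± 0.0253, FDR 0.00563). In DESeq2 its FDR was 0.0511. TMED3 was not called (log2 fold change 0.01 ± 0.036, FDR 0.843).

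ARF GTPases recruit the COPI coat to Golgi membranes, and exchange factors load them with GTP. ARF4 was downregulated, from 382, 374 and 379.5 CPM in si-CN to 349.8, 357 and 363 in si-N6AMT1 (log2 fold change -0.09 ± 0.022, FDR 0.00577). ARF1, the most abundant of the 50 genes per length, was at 455, 453 and 459 CPM in si-CN and 473, 466 and 472 in si-N6AMT1. Every si-N6AMT1 library was higher, but the change did not pass the threshold (log2 fold change 0.05 ± 0.0205, FDR 0.132). ARF3 and ARF5 were not called (log2 fold changes -0.00 and -0.03). GBF1, the exchange factor of the early Golgi, was at 97.6, 97.6 and 98.4 CPM in si-CN and 92.4, 93.2 and 90.9 in si-N6AMT1 (log2 fold change -0.09 ± 0.0283, FDR 0.0312), and its call was lost whichever library was left out (FDR 0.0527 to 0.119). DESeq2 called no exchange factor, also at an unadjusted p under 0.05, and edgeR had only GBF1 at that level. ARFGEF2, which acts at the trans-Golgi, was at 141, 147 and 151 CPM in si-CN and 144, 141 and 141 in si-N6AMT1, with overlap (log2 fold change -0.05 ± 0.0276, FDR 0.272). ARFGEF1 was not called (log2 fold change -0.08 ± 0.0411, FDR 0.164), but its FDR was 0.0483 without si-N6AMT1 replicate 1.

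No Golgi tether or stacking factor was called by edgeR, with 2 of 4 lower at an unadjusted p under 0.05, 2 in limma-voom and 0 in DESeq2. Of the alternatives, the replicate block with a GC correction called GORASP1 downregulated (FDR 0.0395). GOLGA2 (GM130), a cis-Golgi golgin, was at 115, 112 and 117 CPM in si-CN and 115, 110.0 and 108 in si-N6AMT1, with overlapping libraries (log2 fold change -0.05 ± 0.0297, FDR 0.298). Its interval of 2 SE either side was -0.11 to 0.01. GORASP1 (GRASP65) had the largest difference of these tethers, with 42.7, 44.3 and 44.7 CPM in si-CN and 41.7, 38.9 and 41.5 in si-N6AMT1, no overlap and an FDR of 0.063. USO1 (p115), which GOLGA2 binds, had a log2 fold change of -0.08 (FDR 0.139), and GORASP2 (GRASP55) of -0.06 (FDR 0.297).

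Among 6 SNAREs, YKT6 was the downregulated one. It is a lipid-anchored SNARE of several fusion steps and was at 128, 123 and 119 CPM in si-CN and 109, 106 and 110.3 in si-N6AMT1 (log2 fold change -0.18 ± 0.0296, FDR 7.28e-05). The groups did not overlap, and the fall was 12%. STX5, the Golgi syntaxin that pairs with it, was at 59.1, 62.9 and 59.4 CPM in si-CN and 56.4, 55.7 and 59.2 in si-N6AMT1 (log2 fold change -0.08 ± 0.0378, FDR 0.136), with libraries that overlapped. SEC22B, GOSR2 and BET1, the partners of STX5 at the ER to Golgi step, had log2 fold changes of -0.03, -0.00 and 0.04, and GOSR1, which acts within the Golgi, of 0.03. None of these was called.

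**Figure D2:**
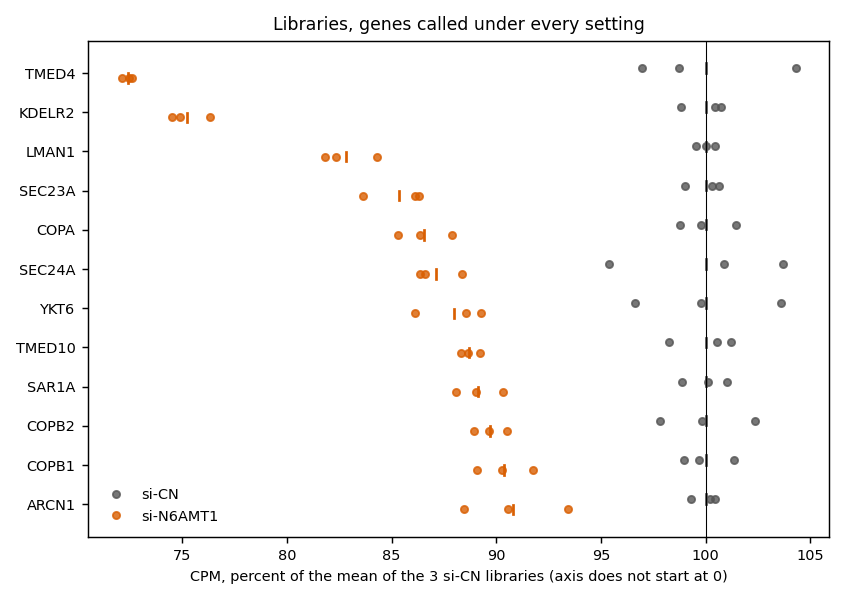
CPM of each library as a percent of the si-CN mean (horizontal axis, which does not start at 0) for the 12 genes downregulated under every alternative. Points are the 3 libraries per group, si-CN in grey and si-N6AMT1 in orange, and vertical ticks are group means. In each of the 12 genes all si-N6AMT1 libraries lie below all si-CN libraries.

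Levels per length differed widely within the pathway. In si-CN, ARF1 was highest at 552 ± 7.93 TPM (SD, n = 3), followed by ARF4 (528 ± 4.72), TMED2 (304 ± 8.56), COPB1 (296 ± 6.54), KDELR2 (287 ± 3.43) and KDELR1 (270.4 ± 5.6). The values overlapped between TMED2 and COPB1 and between COPB1 and KDELR2, so the order of these neighbours was not beyond their spread, whereas ARF1, ARF4 and KDELR1 each stood apart from the next. The lowest were COPG2 at 13.5 TPM, for which the GRCh37 annotation holds only part of the transcript so that its TPM is uncertain, GOSR1 at 16.3 and SAR1B at 20.4. In CPM, the 20 downregulated genes had a median of 236 and the 29 uncalled ones of 74.7, and an effect of the same size is called more readily at higher counts.

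The share of each in the TPM of its family was computed in each library, as a description. By TPM, KDELR2 was the leading KDEL receptor in si-CN, and KDELR1 was in si-N6AMT1. The share of KDELR2 was 49.3% ± 0.352 in si-CN and 42.2% ± 0.455 in si-N6AMT1 (SD, n = 3 each), and that of KDELR1 was 46.4% ± 0.331 in si-CN and 53% ± 0.592 in si-N6AMT1. A similar exchange of rank was seen between the lectins, where the share of LMAN1 was 55.3% ± 0.801 in si-CN and 49.2% ± 0.549 in si-N6AMT1 and LMAN2 made up the rest of the pair. These ranks depend on the length of the reference transcript, which was 2786 bases for KDELR2, 1550 for KDELR1, 4824 for LMAN1 and 1611 for LMAN2. In CPM, si-N6AMT1 means were still higher for KDELR2 (270.3) than KDELR1 (189), and for LMAN1 (321) than LMAN2 (111). The share of SEC23A in the SEC23 pair was 67.4% ± 1.09 in si-CN and 64.5% ± 0.795 in si-N6AMT1. Within SEC24, the share of SEC24A was 24.6% ± 0.686 in si-CN and 22.9% ± 0.452 in si-N6AMT1 whereas that of SEC24C was 40.7% ± 0.346 in si-CN and 42.3% ± 0.909 in si-N6AMT1. Of the p24 total, TMED4 held 12.4% ± 0.359 in si-CN and 9.67% ± 0.0807 in si-N6AMT1. ARF1 came before ARF4 in both groups, with a share of 39.5% ± 0.0492 in si-CN and 41.3% ± 0.432 in si-N6AMT1. SAR1A and COPG1 were the main paralogs in both groups, with 83.5% and 92.5% of their families in si-N6AMT1. Over 34 shares in 12 families, 18 reached the smallest two-sided p that an exact permutation test of 3 against 3 can give (0.1), and the smallest adjusted p was 0.189, so no share could pass a threshold. Shares sum to a fixed total within a family, and a fall of 1 paralog raises the share of the others.

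A further 74 genes of the same route, listed from general knowledge but with earlier results of these data known, were examined with the same fit. The fit called 15 of them downregulated (20.3%) and 1 upregulated (1.35%), beside 11.5% and 9.78% of all genes tested. The downregulated share was near the 18.4% of genes within the CPM range of the 50 genes. Over the 74 genes, log2 fold changes had a median of -0.03. DESeq2 called 7 downregulated. RER1, which retrieves membrane proteins to the ER, was at 115, 118 and 111 CPM in si-CN and 96.5, 97.9 and 95.8 in si-N6AMT1 (log2 fold change -0.25 ± 0.0292, FDR 1.32e-06). The giant golgin GOLGB1 was at 143, 145 and 145 CPM in si-CN and 133, 125 and 129 in si-N6AMT1 (log2 fold change -0.16 ± 0.0273, FDR 0.000133), and NBAS, of the tether for COPI vesicles at the ER, at 40.8, 43.2 and 42.6 CPM in si-CN and 36.3, 36.9 and 34.1 in si-N6AMT1 (log2 fold change -0.24 ± 0.0442, FDR 0.000322). None of these libraries overlapped between groups. TMED8, a distant relative of the p24 proteins, was at 78.1, 78.3 and 80.4 CPM in si-CN and 73.3, 68.8 and 64.5 in si-N6AMT1 (log2 fold change -0.20 ± 0.0384, FDR 0.000539). TRAPPC1, a core subunit of the TRAPP tether, was the upregulated gene, at 89.1, 88.9 and 91 CPM in si-CN and 98.6, 100.3 and 102 in si-N6AMT1 (log2 fold change 0.16 ± 0.029, FDR 0.000239), and without si-N6AMT1 replicate 1 edgeR called 3 genes upregulated. By group, 4 of 12 other cargo receptors, 4 of 9 other golgins, 3 of 8 genes of the NRZ tether and ER SNAREs, 2 of 14 TRAPP subunits, 1 of 7 ER exit site factors and 1 of 8 genes of SNARE recycling were downregulated. The COG complex, a tether within the Golgi, had no call in 8 genes (edgeR, with 1 lower and 1 higher at an unadjusted p under 0.05, 1 and 1 in limma-voom, and 0 in DESeq2). The 8 other COPI and ARF regulators had none either (edgeR, with 2 lower at an unadjusted p under 0.05, 2 in limma-voom and 0 in DESeq2). The 3′ UTR sequences described above stood in 16 of the 74 genes, of which 8 were downregulated, compared with 7 of the 58 without them (12.1%).

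**Figure D3:**
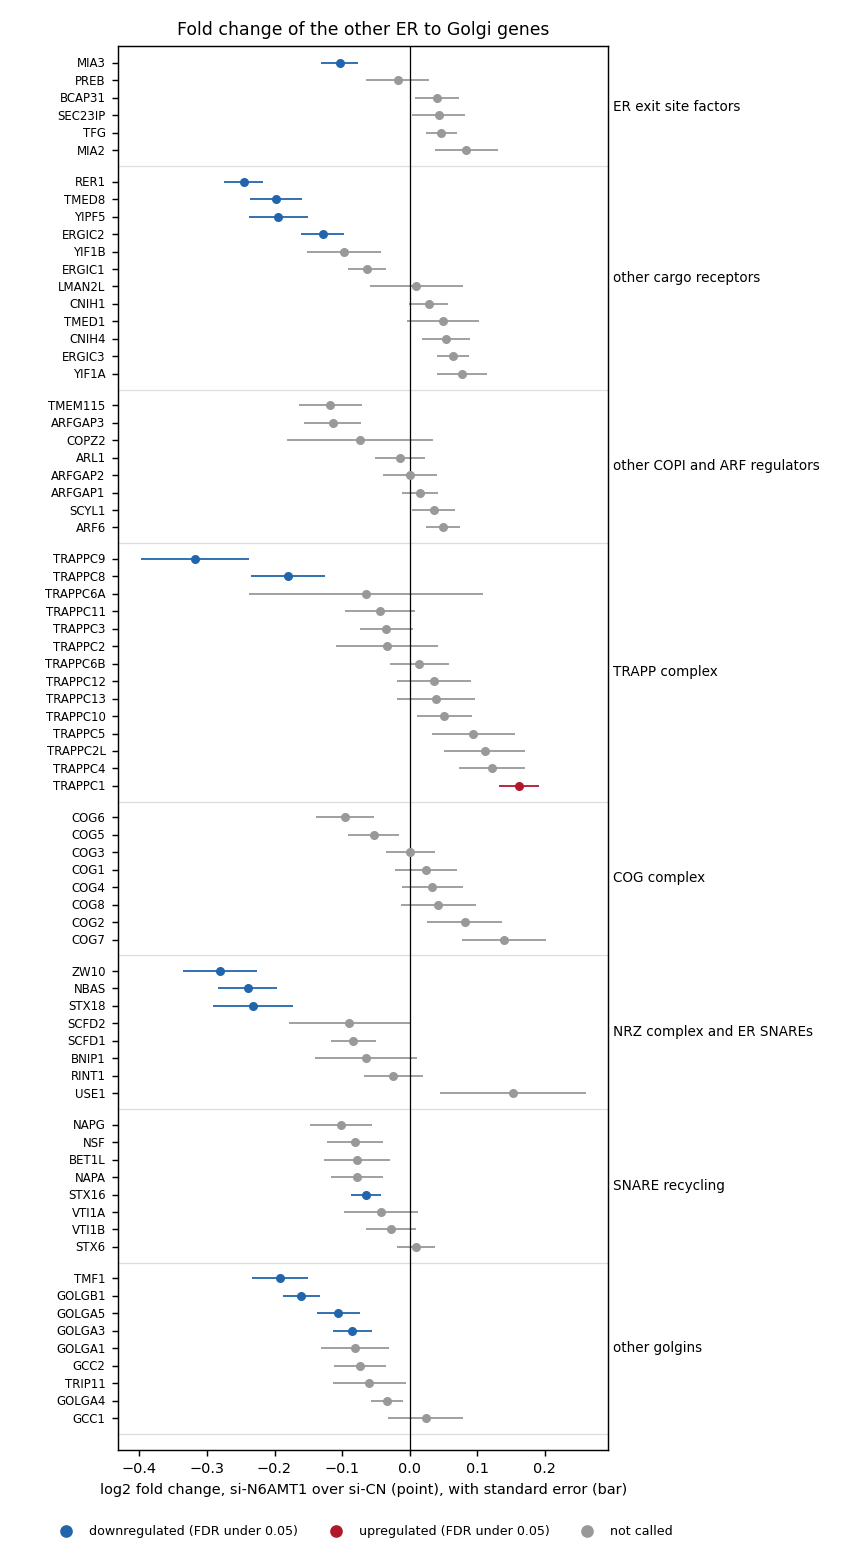
Log2 fold change (si-N6AMT1 over si-CN, horizontal axis) of the other ER to Golgi genes, grouped by complex or role, with 1 standard error as bar and the call at an FDR under 0.05 as color. SEC16B is not drawn, since it was at 0.607 CPM with a standard error of 0.347. The 15 downregulated genes include RER1 at -0.25, and TRAPPC1 is upregulated at 0.16.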

How the data were processed

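The samples were 3 si-N6AMT1 and 3 si-CN libraries, grouped by their labels. The authors trimmed reads with Trim Galore, estimated transcript counts with kallisto v0.46.0 on GENCODE transcripts (hg19) and summed them per gene. The deposited table holds these estimated counts as whole numbers, not normalized. The paper names a stranded library kit, but whether kallisto's strand option was used is not given in the sources used here. Because kallisto divides ambiguous reads by an estimate, counts of paralogs and of genes that share transcript sequence are uncertain.

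The 50 genes, the 74 other pathway genes, the markers, the 3′ UTR sequences and the promoter motifs were chosen with earlier results of these data known. Gene symbols were matched to 62149 of 62438 genes through GENCODE v44 on GRCh37. The test was the quasi-likelihood test of edgeR v4.0.16 (R v4.3.3), after its expression filter with a minimum count of 10 and TMM scaling, of si-N6AMT1 against si-CN over 17320 genes, without covariates, at an FDR under 0.05. SE is the size of a log2 fold change over the root of F. The procedure was tested on simulated data with a single spread for all genes and changes larger than those of the 50 genes. That test therefore does not give error rates at the sizes reported here. The labels do not say that replicates were separate cultures, so p-values measure only the spread between these libraries, which had a biological coefficient of variation of 1.85%. In a chi-square comparison of library pairs, the statistic over its degrees of freedom was 1.36 to 1.77 within groups and 6.85 to 7.81 between groups, so no library was counted as a copy of another. TPM used the reference transcript's length. Shares of paralogs were compared by a two-sided exact permutation test in Python v3.11.15 with scipy v1.17.1.

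Values are given in every library, by rule, for up to 4 called genes with the smallest FDR and the uncalled gene with the highest TPM in each role, and for up to 4 called genes in each direction among the other pathway genes. A few further genes were given by library after their values were seen (SEC16A, SAR1B and GORASP1, whose libraries did not overlap). UTRs were read from GENCODE v44 on GRCh37, and promoters from RefSeq (GRCh38.p14). One luminal marker is not reported here. The alternatives were a replicate block, alone or with a GC correction, RLE size factors, library sizes without mitochondrial genes, tests without the expression filter, limma-voom (limma v3.58.1), DESeq2 v1.42.0 on all genes and on 17598 genes of at least 1 TPM, and the omission of each library.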

Additional observations from a re-analysis of the deposited data

How the results depend on the processing

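Of the 50 genes, 12 of the 20 downregulated ones kept their call in all 14 alternatives. The number downregulated was 16 in DESeq2, 16 in DESeq2 on genes of at least 1 TPM, and 16 to 20 when 1 library was left out. The number upregulated was 0 in DESeq2, with 1 at an unadjusted p under 0.05 there, and 1 to 2 when 1 library was left out. In the other 74 genes, DESeq2 called 7 downregulated and 9 on genes of at least 1 TPM, and leaving out a library gave 11 to 15 downregulated and 1 to 3 upregulated. Over all genes tested, DESeq2 called 1139 down and 796 up, and 1239 and 930 on genes of at least 1 TPM. Leaving out a library gave 1540 to 1816 down and 1295 to 1523 up, beside 1993 and 1694 in the main fit. Shares of all genes called under the alternatives are not given here. The counts of the 50 and the 74 genes therefore show only which calls held. Replicate numbers did not pair the libraries, since deviations of same-numbered libraries correlated at -0.0381, -0.0422 and 0.00997. With the replicate block, 19 of the 50 genes and 13 of the other 74 were downregulated, and with the replicate block and a GC correction 18 and 12 were. TMED7 (FDR 0.161), ARF4 (FDR 0.209) and SEC24B (FDR 0.107) were lost under the latter and GORASP1 (FDR 0.0395) was gained. The GC correction also moved the median of the 50 genes from -0.08 to -0.05. The log2 fold change of KDELR1, which was not called, changed sign to -0.0132 under the block with GC correction and ran from -0.00493 to 0.0144 with 1 library left out. Differences in share, in percentage points, changed sign for COPB1 (-0.240 to 0.612), ARFGEF2 (-0.189 to 1.20) and GOSR2 (-1.16 to 0.112) with 1 library left out. The cause of these changes was not tested. At this depth KDELR3 and COPG2, at 18.8 and 10.6 CPM, have standard errors of 0.0643 and 0.0821, compared with 0.022 for KDELR2, so their fold changes are known less precisely.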
